A study of Mus musculus with 18 samples.

Results

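Homozygous mutant mouse embryonic fibroblasts that had been given TGFb1 for 24 h were compared with the same kind of cells at 4 h. The comparison rests on the 2 arrays labelled homozygous with TGFb for 24 h and the 2 arrays labelled homozygous with TGFb for 4 h, 4 of the 18 arrays of the series, chosen by their labels and by no measured value. The fibroblasts came from E12.5 to E14.5 embryos without head, liver and blood clots. They carried on both alleles a mutant that the design text calls constitutively active. Its identity is not settled by the labels, since the title has the point mutation in TGFBR1 and the design text speaks of TGFb1, and it is therefore named only as the mutant. Both homozygous groups received 5 ng/mL TGFb1, and so did the heterozygous and wt cells at 24 h and 4 h (2 arrays each) that are set beside them. Untreated homozygous cells (2 arrays) are shown as a level only: no duration is given for them, so time in culture and time with TGFb1 cannot be told apart. Whether 2 arrays of the same group stand for separate embryos or cultures is not stated. The p-values therefore measure only a spread between arrays of the same group, pooled over all 9 groups of the series.

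TGFb1 is a secreted ligand that brings together a type II and a type I receptor, and the type I receptor TGFBR1 then phosphorylates SMAD2 and SMAD3, which enter the nucleus with SMAD4 and act on target genes. In fibroblasts the ligand is known for an early wave of transcription factor and feedback genes, followed by matrix production, contractile proteins and slower growth. Early genes of growth factor responses, such as Fos and Egr1, are induced within the first hour or so and then shut off, whereas collagen and cell cycle genes move later.

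Expression was read on Affymetrix mouse arrays as GCRMA intensity, a background-corrected and normalized brightness for each probe set, and is given here as log2. Each of 10078 genes was represented by its brightest probe set. A gene was called when its adjusted p (limma, Benjamini-Hochberg over all 10078 genes) was under 0.05. Each ± is the standard error of a log2 difference (n = 2 arrays in each group), from a spread that limma pooled for each gene over all 9 groups. A level under log2 5 was taken as too dim to size, and a change into or out of such a level is given as a bound ("at least"). The 2 arrays of each homozygous group correlated at 0.9932 to 0.9934, and 39.82 to 40.4% of probe sets on the 6 homozygous arrays lay above log2 5. Fibroblast genes were bright in all of them, with Vim, an intermediate filament protein of mesenchymal cells, at 15.86 and 15.83 at 24 h and at 15.71 and 15.72 at 4 h, and Col1a1 at 14.89 or above. In the replicate 1 arrays of homozygous cells Xist, by 1 of its 3 probe sets, lay between 10.24 and 11.76 and the Y-linked gene Eif2s3y at or under 3.06, while in the replicate 2 arrays Xist lay at or under 2.67 and Eif2s3y at or above 10.56, so each time had 1 array of each kind and its 2 arrays did not come from the same source of cells. Whether arrays with the same number share a source across times is not stated.

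In the deposited values more genes fell than rose, an order that turned round under other scalings. Of 10078 genes 3722 were called, 36.9%, with 1506 higher at 24 h (14.9%) and 2216 lower (22.0%), and the median log2 difference of all genes was -0.07. Changes over 2-fold were 263 rises and 501 falls. The shares of all genes set beside list counts below are those with all arrays in the fit. They are not the background of list counts with 1 array left out, where fewer of all genes were called. The split between rises and falls depended on scaling: with quantile normalization 2001 genes were higher and 1803 lower (52.6% of calls higher), and with equal array medians 1986 were higher and 1739 lower (53.3%), against 40.5% of calls higher as deposited. Each single array also carried part of the count: it was 2187 without 24 h replicate 1, 2101 without 24 h replicate 2, 2054 without 4 h replicate 1 and 2422 without 4 h replicate 2.

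The genes that rose most included receptors, a transporter and enzymes. Cnr1, the cannabinoid receptor CB1 (chromosome 4, GRCm38.p6 positions 33923171 to 33948831), had levels of 7.32 and 7.37 at 24 h, against 3.57 and 3.66 at 4 h, and was at least 5.07-fold higher (adjusted p = 3.86e-06). Its level in untreated cells was 4.7 and 4.77, under log2 5 like its 4 h level. Nox4, an NADPH oxidase that makes hydrogen peroxide, had levels of 11.65 and 11.63 at 24 h, against 9.07 and 9.29 at 4 h, a log2 difference of 2.46 ± 0.16 (5.5-fold, adjusted p = 3.86e-06). Untreated cells held Nox4 at 10.12 and 9.98, between the 2 times. Lgr6, a receptor for R-spondins, had levels of 8.79 and 8.89 at 24 h, against 6.32 and 6.2 at 4 h (5.99-fold, adjusted p = 6.07e-05). Pcsk5, a protease that activates secreted precursors, had levels of 10.58 and 10.68 at 24 h, against 8.58 and 8.49 at 4 h (4.28-fold, adjusted p = 4.51e-05). Lgr6 and Pcsk5 in untreated cells (6.73 and 6.5 for Lgr6, 8.63 and 8.38 for Pcsk5) lay close to their 4 h levels and below their 24 h levels. Abcb1a, a drug efflux pump, was at least 4.69-fold higher at 24 h (7.0 and 7.46, against 3.81 and 3.87 at 4 h), and Camk4, a calcium-dependent kinase, at least 2.92-fold.

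Other rises started from a 4 h level below that of untreated cells. Malat1, a nuclear long noncoding RNA, had levels of 14.89 and 14.94 at 24 h, against 12.75 and 12.96 at 4 h (4.16-fold, adjusted p = 0.00128), with 15.07 and 15.21 in untreated cells. For Malat1, 2 of 6 other probe sets went the opposite way (log2 differences of -0.74 to 1.83 among the 6). Gas1, a membrane protein that binds hedgehog ligands, had levels of 9.61 and 9.48 at 24 h, against 7.22 and 7.79 at 4 h (4.11-fold, adjusted p = 0.000722), and stood higher still in untreated cells at 11.26 and 11.09. Zfp608, a zinc finger protein, was at least 2.66-fold higher at 24 h than at 4 h, with 7.26 and 7.19 in untreated cells against 6.42 and 6.41 at 24 h. Dbp, an output gene of the circadian clock, had levels of 7.63 and 8.08 at 24 h, against 5.73 and 5.43 at 4 h (4.83-fold), with 7.44 and 7.79 in untreated cells. The other genes among the 15 largest rises were Rarb and Dhrs3, described with the retinoic acid genes below, Arg1, Etfbkmt, Zc3h6 and Hoxa4. Arg1, which breaks down arginine, was called at 6.46 and 5.15 at 24 h, against 4.04 and 2.28 at 4 h (at least 1.75-fold), but not without 24 h replicate 1 (adjusted p = 0.0615) or without 4 h replicate 2 (adjusted p = 0.0608). Hoxa4 was likewise not called without 24 h replicate 2 (adjusted p = 0.0699) or without 4 h replicate 1 (adjusted p = 0.107).

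The genes that fell most were mainly transcripts that stood high at 4 h, and for several the 24 h level was that of untreated cells. Serpinb2, an inhibitor of plasminogen activators (chromosome 1, GRCm38.p6 positions 107500892 to 107525600), had levels of 2.88 and 2.65 at 24 h, against 7.96 and 7.4 at 4 h, at least 6.42-fold lower (adjusted p = 8.13e-05), and 2.63 and 2.62 in untreated cells. Sema7a, a membrane-anchored semaphorin, had levels of 5.94 and 6.7 at 24 h, against 10.24 and 10.59 at 4 h (17.1-fold lower, adjusted p = 6.49e-05), and 5.25 and 5.26 in untreated cells. Nppb, the precursor of B-type natriuretic peptide, had levels of 5.13 and 5.06 at 24 h, against 8.9 and 8.59 at 4 h (12.6-fold lower, adjusted p = 6.07e-05), and 5.19 and 5.38 in untreated cells. Fgf18, a fibroblast growth factor, was at least 5.06-fold lower at 24 h, Cxcr4, the receptor of the chemokine CXCL12, at least 3.02-fold and Prdm1, a transcriptional repressor, at least 2.59-fold. These 3 genes were dim in both the 24 h and the untreated arrays and above log2 6 at 4 h. Nipal1, a magnesium transporter, had levels of 7.32 and 7.66 at 24 h, against 11.06 and 11 at 4 h (11.6-fold lower, adjusted p = 8.65e-06).

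In another group of falls the 24 h arrays stood below both other conditions. Ccn3, a matrix-associated signalling protein, had levels of 4.5 and 4.71 at 24 h, against 8.73 and 8.6 at 4 h, at least 12.7-fold lower (adjusted p = 0.000307), and 8.91 and 8.81 in untreated cells. Cbr2, a carbonyl reductase, had levels of 2.74 and 3.27 at 24 h, against 6.69 and 7.2 at 4 h, at least 3.85-fold lower, and 6.36 and 6.18 in untreated cells. Rtl3, a gene derived from a retrotransposon, was at least 7.47-fold lower at 24 h (3.92 and 3.91, against 7.81 and 8.0 at 4 h), with 9.22 and 9.47 in untreated cells. Hivep3, a zinc finger protein, and Ecrg4, a secreted peptide precursor, were also among the 15 largest falls, each with 1 of its 2 arrays at 24 h under log2 5, so their sizes are uncertain. Ecrg4 was not called without 24 h replicate 1 (adjusted p = 0.15) or without 4 h replicate 2 (adjusted p = 0.097).

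**Figure D1:**
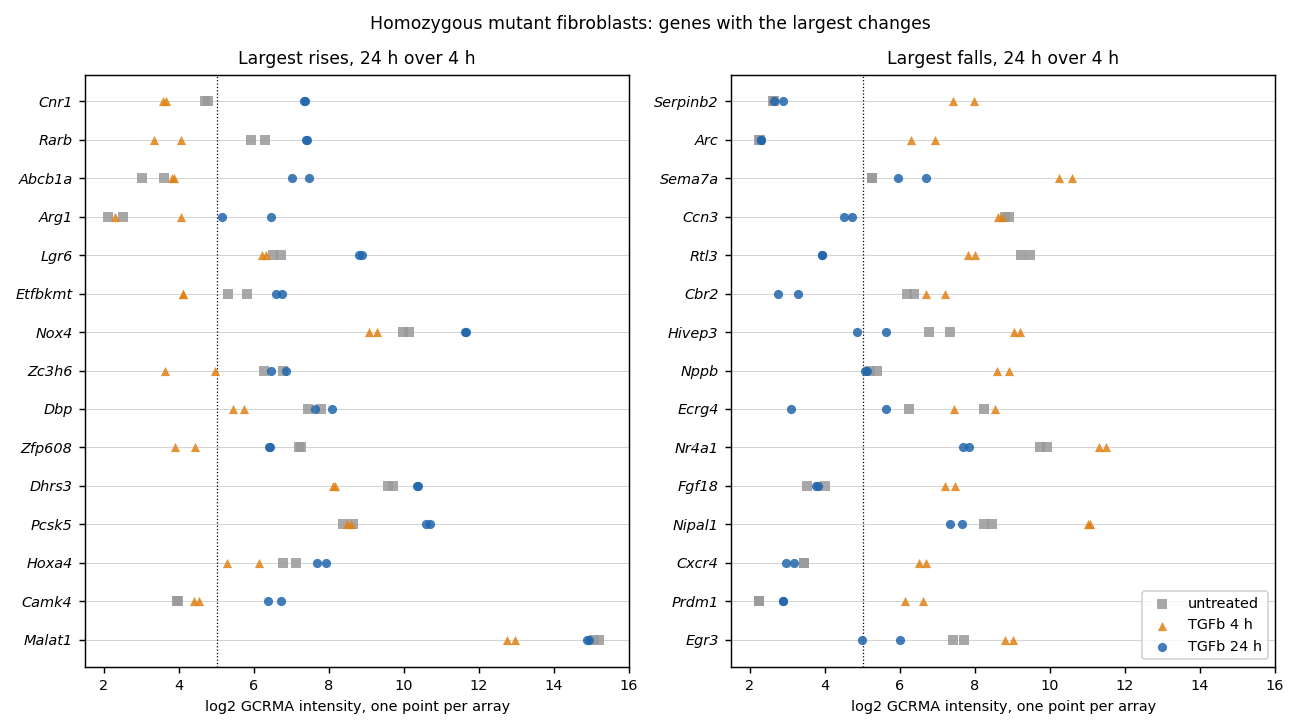
Levels (log2 GCRMA intensity, horizontal axis) of the 15 largest rises and the 15 largest falls in homozygous cells, with 1 point for each untreated, 4 h and 24 h array and a dotted line at log2 5, under which a level is too dim to size. By the rule that chose the genes the 24 h points lie on 1 side of both 4 h points, while the untreated points lie at, between or beyond them depending on the gene.

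Immediate early genes, which code for the transcription factors and regulators that cells switch on first after a stimulus, were lower at 24 h. Of 26 measured members 23 were called lower and 0 higher, beside 22.0% of all genes called lower, and their median log2 difference was -1.21, against -0.07 for all genes. Nr4a1, an orphan nuclear receptor, had levels of 7.69 and 7.85 at 24 h, against 11.48 and 11.31 at 4 h (12.3-fold lower, adjusted p = 9.14e-07), and 9.73 and 9.92 in untreated cells. Arc, a regulator of endocytosis and synaptic strength in neurons, was at least 3.05-fold lower at 24 h (2.29 and 2.28, against 6.28 and 6.94 at 4 h) and was dim in untreated cells as well. Egr3 had levels of 4.98 and 6.0 at 24 h, against 9.01 and 8.81 at 4 h, and Fosb, an AP-1 subunit, was dim at 24 h. Among members named after their values were seen, Egr1 had levels of 10.3 and 10.36 at 24 h, against 11.77 and 11.9 at 4 h (2.83-fold lower, adjusted p = 8.63e-06), and Fos had 8.21 and 8.22 at 24 h, against 9.3 and 9.5 at 4 h (2.27-fold lower, adjusted p = 0.000165). Egr1 and Fos in untreated cells were at 11.88 and 11.75, and at 9.84 and 9.75, so their 24 h levels stood below both other conditions. Jun, Jund and Klf6 did not pass the test (log2 differences of -0.20, 0.14 and -0.37). The count lower was 18 to 21 with any 1 of the 4 arrays left out, and 22, 22 and 19 with quantile normalization, equal medians and a removed trend over gene span (which also left 1 member higher).

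Serum response factor, itself coded by a member of this list, binds the CArG box, and the promoters of the 2 list members that held this motif are shown. Promoters are the RefSeq windows on GRCm38.p6 from 250 bases before to 50 after a transcript start, printed 5′ to 3′ on the gene's strand, with the matched motif in capitals. Both strands were searched.
Srf promoter, chr17:46556113-46556412, minus strand: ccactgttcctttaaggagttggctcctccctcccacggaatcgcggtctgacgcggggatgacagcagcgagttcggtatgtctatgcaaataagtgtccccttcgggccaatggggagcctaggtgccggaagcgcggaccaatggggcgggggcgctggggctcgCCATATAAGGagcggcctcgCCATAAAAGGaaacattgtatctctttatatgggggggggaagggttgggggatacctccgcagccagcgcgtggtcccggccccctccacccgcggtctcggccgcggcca
Egr2 promoter, chr10:67537316-67537615, plus strand: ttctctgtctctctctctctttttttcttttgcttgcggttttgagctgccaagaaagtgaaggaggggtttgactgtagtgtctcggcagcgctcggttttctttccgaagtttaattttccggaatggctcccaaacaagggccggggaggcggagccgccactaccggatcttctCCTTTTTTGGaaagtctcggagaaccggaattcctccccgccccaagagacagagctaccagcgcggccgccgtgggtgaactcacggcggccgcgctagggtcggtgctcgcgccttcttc
The CArG box was found in 5 of 26 windows of the list (19.2%), which belong to 2 of its 20 genes with a window, and in 1.63% of all 32817 windows. Srf had levels of 8.93 and 8.94 at 24 h, against 10.39 and 10.41 at 4 h (2.76-fold lower, adjusted p = 2.31e-05), and 9.01 and 8.91 in untreated cells. Egr2 had levels of 12.32 and 12.39 at 24 h, against 13.77 and 13.59 at 4 h (2.5-fold lower, adjusted p = 0.00551), and 10.74 and 10.63 in untreated cells, so its 24 h level was still the higher one.

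Phosphatases and Sprouty proteins that switch off MAP kinase signalling leaned the same way, beside 22.0% of all genes called lower and 14.9% called higher. Of 14 measured members 8 were called lower and 1 higher (median log2 difference -0.60), and 6 to 8 lower with 1 of the 4 arrays left out. Dusp10 had levels of 6.07 and 6.28 at 24 h, against 8.71 and 8.54 at 4 h (5.48-fold lower, adjusted p = 4.05e-05), and Dusp5 had 10.23 and 10.24 at 24 h, against 11.88 and 11.82 at 4 h (3.06-fold lower, adjusted p = 6.03e-06). Errfi1, a feedback inhibitor of the EGF receptor, was 3.19-fold lower. Spry1 was the member that rose, with 9.17 and 9.32 at 24 h, against 8.11 and 8.04 at 4 h (2.24-fold, adjusted p = 0.00037). Untreated cells held Spry1 at 10.03 and 10.07, above both times.

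Genes of mitosis fell together by modest amounts. Of 34 measured members 30 were called lower and 0 higher, beside 22.0% of all genes called lower, with a median log2 difference of -0.78. Aurka, a kinase of the spindle poles, had levels of 8.97 and 8.7 at 24 h, against 10.28 and 10.01 at 4 h, a log2 difference of -1.31 ± 0.16 (2.48-fold lower, adjusted p = 0.000131). Its untreated levels of 9.79 and 9.47 lay between the 2 times. Birc5, the chromosomal passenger protein survivin, had levels of 10.33 and 10.2 at 24 h, against 11.62 and 11.52 at 4 h, and Cenpa, the histone of centromeres, had 9.82 and 9.6 at 24 h, against 11.24 and 10.81 at 4 h, each 2.48-fold lower (adjusted p of 0.000168 for Birc5 and 0.000241 for Cenpa). Ccnb2, a mitotic cyclin, was 2.36-fold lower (adjusted p = 3.03e-05). Mki67, Ect2, Kif11 and Cenpf did not pass (log2 differences of 0.13, -0.04, -0.37 and -0.31), and Mki67 had levels of 10.13 and 10.09 at 24 h, against 9.94 and 10.01 at 4 h and 11.22 and 11 in untreated cells. The count lower was 21 to 29 with any 1 of the 4 arrays left out. In bulk samples such as these, fewer cells of a kind and less RNA per cell cannot be told apart.

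Promoters of mitosis genes often pair a CCAAT box with a cell cycle homology region, TTTGAA, and the windows of Aurka and Cenpa hold both motifs.
Aurka promoter, chr2:172370521-172370820, minus strand: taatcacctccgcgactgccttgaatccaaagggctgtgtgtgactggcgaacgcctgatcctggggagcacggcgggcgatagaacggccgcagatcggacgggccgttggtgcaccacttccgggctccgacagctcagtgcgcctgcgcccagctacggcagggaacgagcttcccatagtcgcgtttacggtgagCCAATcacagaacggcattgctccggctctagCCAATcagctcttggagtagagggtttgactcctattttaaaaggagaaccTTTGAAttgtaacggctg
Cenpa promoter, chr5:30666636-30666935, plus strand: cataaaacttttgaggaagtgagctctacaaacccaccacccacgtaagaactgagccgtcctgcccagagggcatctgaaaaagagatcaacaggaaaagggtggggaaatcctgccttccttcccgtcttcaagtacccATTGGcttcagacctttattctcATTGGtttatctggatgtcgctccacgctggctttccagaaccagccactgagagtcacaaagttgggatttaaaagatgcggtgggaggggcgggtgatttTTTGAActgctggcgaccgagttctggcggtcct
CCAAT was found in 25 of 33 windows of the list (75.8%) and in 37.4% of all windows, counted on both strands, and ATTGG in capitals is its match on the other strand. TTTGAA was found in 23 of 33 windows (69.7%) and in 17.9% of all windows. Both motifs were found in 20 of the 33 windows (60.6%), against 6.94% of all windows. By gene, CCAAT was held by 22 and TTTGAA by 20 of the 30 with a window. Of the 24 genes with a window that were called lower, 16 held CCAAT and 16 held TTTGAA.

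DNA replication and G1/S genes leaned lower. Of 40 measured members 21 were called lower and 1 higher, beside 22.0% and 14.9% of all genes, with a median log2 difference of -0.39. Tk1, thymidine kinase, had levels of 7.87 and 7.7 at 24 h, against 9.43 and 9.2 at 4 h, and Gins2, a subunit of the replicative helicase, had 7.95 and 7.61 at 24 h, against 9.39 and 9.22 at 4 h, each 2.88-fold lower (adjusted p of 0.000345 for Tk1 and 0.000131 for Gins2). E2f8, a repressor of the E2F family, was 1.99-fold lower. Mcm2, another helicase subunit, was the member that rose, with 10.02 and 9.93 at 24 h, against 9.5 and 9.31 at 4 h (1.49-fold, adjusted p = 0.00357). Mcm3, Mcm4 and Mcm6 did not pass, with log2 differences of 0.21, 0.18 and 0.10. The count lower was between 7 and 20 with 1 of the 4 arrays left out. The E2F site GGCGGGA was found in 12 of 44 windows of this list (27.3%) and in 11.3% of all windows. By gene, 12 of the 36 with a window held it, and 5 of the 18 with a window that were called lower.

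Inhibitors of the cell cycle and p53 targets went both ways, 9 of 24 higher and 6 lower (7 or 8 and 3 to 5 with 1 of the 4 arrays left out). Among all genes 14.9% were called higher and 22.0% lower. Cdkn2b, the inhibitor p15 and a known TGFb target, had levels of 13.24 and 13.38 at 24 h, against 12.26 and 12.45 at 4 h (1.94-fold, adjusted p = 0.000136). Sesn2, a stress-induced regulator of growth signalling, was 2.92-fold higher (adjusted p = 0.00276) and Trp53inp1, a p53-induced nuclear protein, 2.23-fold higher (adjusted p = 6.07e-05). Btg2, an antiproliferative and early-response gene, was 3.85-fold lower (10.23 and 10.3 at 24 h, against 12.15 and 12.27 at 4 h, adjusted p = 1.07e-05), and Cdkn2c, the inhibitor p18, 2.65-fold lower. Cdkn1a, the inhibitor p21, was at 13.73 and 13.77 at 24 h and at 13.59 and 13.75 at 4 h and did not pass (adjusted p = 0.55).

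Genes of amino acid supply and of the ATF4 stress response had the largest share of rises among the gene lists examined. Of 42 measured members 24 were called higher and 1 lower, beside 14.9% of all genes called higher, with a median log2 difference of 0.40. Slc1a4, a transporter of neutral amino acids, had levels of 9.67 and 9.76 at 24 h, against 8.33 and 8.4 at 4 h, a log2 difference of 1.35 ± 0.16 (2.55-fold, adjusted p = 0.000118). Trib3, a pseudokinase induced by ATF4, had levels of 10.14 and 10.39 at 24 h, against 8.91 and 9.0 at 4 h (2.48-fold, adjusted p = 0.000235). Slc6a9, a glycine transporter, was 2.43-fold higher (adjusted p = 0.000373). The untreated levels of Slc1a4 (9.62 and 9.72) and of Trib3 (10.21 and 10.26) were close to those at 24 h. Enzymes that charge transfer RNAs were among the members called, for example Aars for alanine (12.18 and 12.27 at 24 h, against 11.23 and 11.42 at 4 h) and Iars for isoleucine (13.25 and 13.29 at 24 h, against 12.58 and 12.59 at 4 h), both named after their values were seen. Psat1, an enzyme of serine synthesis, was the member called lower (log2 difference -0.27, adjusted p = 0.0441), and Asns, asparagine synthetase, did not pass (0.25, adjusted p = 0.198). Atf4 itself differed by 0.46 ± 0.17 (adjusted p = 0.0459), a call lost with any 1 of the 4 arrays left out (adjusted p of 0.0761 to 0.229). The count higher was 15 or 16 with any 1 of the 4 arrays left out, with 0 lower, and it was 27, 27 and 24 with quantile normalization, equal medians and a removed trend over gene span.

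ATF4 binds the amino acid response element, TGATGNAA, found in both promoters shown as its match on the other strand.
Slc1a4 promoter, chr11:20332664-20332963, minus strand: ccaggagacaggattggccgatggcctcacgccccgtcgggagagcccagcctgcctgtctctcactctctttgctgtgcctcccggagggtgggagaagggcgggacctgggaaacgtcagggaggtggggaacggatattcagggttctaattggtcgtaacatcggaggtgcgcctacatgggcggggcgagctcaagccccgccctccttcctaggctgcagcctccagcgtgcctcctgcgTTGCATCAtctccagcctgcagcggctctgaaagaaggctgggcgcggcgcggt
Trib3 promoter, chr2:152344011-152344310, minus strand: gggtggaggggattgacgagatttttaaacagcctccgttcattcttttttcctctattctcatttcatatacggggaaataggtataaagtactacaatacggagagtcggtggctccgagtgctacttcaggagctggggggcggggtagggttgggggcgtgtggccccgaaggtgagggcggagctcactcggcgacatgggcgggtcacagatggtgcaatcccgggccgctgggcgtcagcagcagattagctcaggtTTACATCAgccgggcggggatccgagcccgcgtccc
The element was found in 14 of 42 windows of the list (33.3%), which belong to 14 of its 36 genes with a window, and in 3.97% of all windows. Of the 20 genes with a window that were called higher, 9 held it.

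Retinoic acid is a signal made from vitamin A that acts through nuclear receptors, and 2 of the largest rises were genes of this pathway. Rarb, the receptor RARβ (chromosome 14, GRCm38.p6 positions 16430839 to 17082331), had levels of 7.39 and 7.4 at 24 h, against 3.32 and 4.04 at 4 h, and was at least 5.27-fold higher (adjusted p = 3.86e-06). Untreated cells held Rarb at 6.3 and 5.93, so the 4 h arrays were the low ones. Dhrs3, which reduces retinaldehyde and so limits retinoic acid, had levels of 10.36 and 10.34 at 24 h, against 8.11 and 8.15 at 4 h (4.65-fold, adjusted p = 1.82e-05), and 9.71 and 9.57 in untreated cells. Aldh1a2, which makes retinoic acid, was 2.0-fold higher (adjusted p = 0.0105), a call lost without 24 h replicate 1 (adjusted p = 0.0977) or 4 h replicate 2 (adjusted p = 0.0778). Rarg, the receptor RARγ, was 1.66-fold higher (adjusted p = 0.000879). Crabp1, a binding protein of retinoic acid, fell to 8.35 and 8.04 at 24 h, against 10.42 and 10.17 at 4 h (4.29-fold lower, adjusted p = 4.47e-05). In all, 4 of 14 measured members were called higher and 1 lower, beside 14.9% and 22.0% of all genes. Rara, Rxra and Rxrb did not pass (log2 differences of -0.16, -0.04 and 0.01).

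The Rarb promoter is shown because it holds the direct repeat GTTCA, 6 bases, GTTCA of a retinoic acid response element.
Rarb promoter, chr14:16575427-16575726, minus strand: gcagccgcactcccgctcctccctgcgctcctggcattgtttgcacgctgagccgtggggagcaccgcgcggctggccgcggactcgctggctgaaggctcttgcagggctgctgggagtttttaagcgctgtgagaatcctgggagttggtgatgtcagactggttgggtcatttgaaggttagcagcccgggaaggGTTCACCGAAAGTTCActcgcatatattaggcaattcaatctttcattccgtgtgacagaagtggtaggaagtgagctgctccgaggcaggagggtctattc
The repeat starts 52 bases before the transcript start. It was found in 2 of 27 windows of the list, those of Rarb and Cyp26a1 (7.41%), and in 0.0762% of all windows, counted on both strands.

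Members of the TGFb pathway itself showed no common direction. Of 27 measured target and feedback genes 5 were called higher and 6 lower (median 0), near the 14.9% and 22.0% of all genes. Of 29 ligands, receptors and Smads 6 were higher and 4 lower. With 1 of the 4 arrays left out 3 to 5 of the targets were higher and 6 lower, and 2 to 5 of the ligands, receptors and Smads were higher and 3 or 4 lower. Id1, a repressor of basic helix-loop-helix factors, had levels of 10.77 and 10.66 at 24 h, against 12.57 and 12.59 at 4 h (3.63-fold lower, adjusted p = 0.0015), with 11.01 and 10.91 in untreated cells. Snai1, a transcriptional repressor of epithelial genes, was 3.62-fold lower (8.03 and 7.76 at 24 h, against 9.81 and 9.69 at 4 h, adjusted p = 0.000874). Tgfbi, a matrix protein named for its induction by TGFb, was 3.01-fold lower (9.49 and 9.97 at 24 h, against 11.19 and 11.45 at 4 h, adjusted p = 0.00404). Skil, a SMAD corepressor, had levels of 12.74 and 12.77 at 24 h, against 12.02 and 12.11 at 4 h (1.62-fold, adjusted p = 0.000166), and Zeb2, a transcriptional repressor that binds SMADs, was 2.15-fold higher (adjusted p = 0.00236). Il11, a cytokine, had levels of 10.11 and 10.16 at 24 h, against 11.82 and 11.73 at 4 h (3.12-fold lower, adjusted p = 0.000811), and stood far above the untreated 7.08 and 6.76 at both times.

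Several textbook TGFb genes did not pass between the 2 times. Smad7, the inhibitory Smad, was at 11.42 and 11.31 at 24 h and at 11.74 and 11.51 at 4 h (adjusted p = 0.368). Smad7 was called lower with only the homozygous arrays (adjusted p = 0.0433) or only the mutant arrays (adjusted p = 0.0396). Ccn2, connective tissue growth factor, was at 15.81 and 15.76 at 24 h and at 15.71 and 15.78 at 4 h, near the top of the scale (adjusted p = 0.661), and was called higher after removal of the trend over gene span (0.34, adjusted p = 0.0484). Acta2, smooth muscle actin, was at 15.39 and 15.27 at 24 h and at 15.28 and 15.38 at 4 h (adjusted p = 0.982), and Tgfb1 was at 11.46 and 11.55 at 24 h and at 11.58 and 11.54 at 4 h (adjusted p = 0.722). In Tgfb1 both times lay above the untreated 10.42 and 10.34, whereas Acta2 in untreated cells was at 15.46 and 15.47. Among ligands and receptors, Inhba, the activin A subunit, was 1.91-fold lower (13.22 and 13.31 at 24 h, against 14.19 and 14.2 at 4 h, adjusted p = 6.22e-05), the activin antagonist Fst 1.94-fold lower (adjusted p = 0.00481) and Bmp4 1.71-fold lower (adjusted p = 0.00358). Tgfbr2, the type II receptor, was 1.54-fold higher (adjusted p = 0.00535), a call lost without 4 h replicate 1 (adjusted p = 0.0663). For Tgfbr1 the brightest probe set gave a log2 difference of -0.37 ± 0.10 (adjusted p = 0.0112) and the other 2 gave 0.82 and 0.92, and the mean of its probe sets was 0.46, so no direction is given. The Tgfbr1 call was also lost without 24 h replicate 2 (adjusted p = 0.0858) or 4 h replicate 1 (adjusted p = 0.0722).

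Collagen chains rose in part. Of 20 measured chains 8 were called higher and 2 lower, beside 14.9% and 22.0% of all genes, with a median log2 difference of 0.38. Col5a3 had levels of 11.42 and 11.75 at 24 h, against 9.74 and 9.79 at 4 h, a log2 difference of 1.82 ± 0.31 (3.53-fold, adjusted p = 0.000946). Col7a1, the chain of the anchoring fibrils under epithelia, had 10.92 and 11.32 at 24 h, against 9.54 and 9.8 at 4 h (2.73-fold, adjusted p = 0.0024). Col11a1, a minor chain of fibrils, was 2.2-fold higher and Col1a1, the main chain of type I collagen, 1.5-fold higher (15.52 and 15.63 at 24 h, against 14.89 and 15.11 at 4 h, adjusted p = 0.00159). Col1a1 in untreated cells was at 15.6 and 15.62, the same as at 24 h within the spread of the arrays, while Col5a3 in untreated cells was at 9.55 and 9.43, near its 4 h level. Col6a2 of type VI collagen was 2.4-fold lower (9.55 and 9.75 at 24 h, against 10.84 and 10.99 at 4 h, adjusted p = 0.00241), and Col6a1 of the same type was called lower too (adjusted p = 0.0408), a call lost with any 1 of the 4 arrays left out (adjusted p of 0.0778 to 0.198). The chains called higher were 4 to 7 with any 1 of the 4 arrays left out and 5 after removal of a trend over gene span.

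Of 18 collagen-processing genes 6 were called higher and 2 lower, and 2 to 5 higher with 1 of the 4 arrays left out. Among all genes 14.9% were called higher and 22.0% lower, the shares to set beside each count in this paragraph that comes from all arrays. Plod2, which hydroxylates collagen lysines for cross-links, had levels of 13.46 and 13.37 at 24 h, against 12.2 and 12.33 at 4 h (2.22-fold, adjusted p = 0.000199), and Loxl4, a lysyl oxidase, was 1.56-fold higher (adjusted p = 0.00339). Among 34 other matrix proteins 12 were higher and 10 lower, or 4 to 10 and 5 to 8 with 1 of the 4 arrays left out. Thbs2, a thrombospondin, was 1.75-fold higher and Fn1, fibronectin, 1.29-fold higher (15.28 and 15.27 at 24 h, against 14.84 and 14.99 at 4 h, adjusted p = 0.00108), both named after their values were seen. Ccn5 was 2.2-fold lower (adjusted p = 0.00194) and Ccn3 at least 12.7-fold lower, as described above. Among 24 proteases and inhibitors 4 were higher and 4 lower (2 or 3 and 3 or 4 with 1 array left out). Adamts4, an aggrecanase, was 3.01-fold higher (adjusted p = 0.00218), although not in the mean of its probe sets (adjusted p = 0.113), and Plaur, the urokinase receptor, was 2.91-fold lower (10.91 and 10.83 at 24 h, against 12.46 and 12.36 at 4 h, adjusted p = 0.000141).

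Contractile and cytoskeletal genes leaned lower, with 13 of 32 called lower and 3 higher, beside 22.0% and 14.9% of all genes, and a median log2 difference of -0.26. With 1 of the 4 arrays left out 8 to 12 were lower and 1 higher. Smtn, smoothelin of contractile smooth muscle, had levels of 9.18 and 9.43 at 24 h, against 10.35 and 10.46 at 4 h (2.14-fold lower, adjusted p = 0.000185), and Fhl1, a LIM-domain protein, was 2.37-fold lower (12.41 and 12.34 at 24 h, against 13.63 and 13.62 at 4 h, adjusted p = 0.000207). Mylk, myosin light chain kinase, was 3.59-fold lower (adjusted p = 0.00639), a call lost without 24 h replicate 1 (adjusted p = 0.0507) or 4 h replicate 2 (adjusted p = 0.0549). Flna, which cross-links actin, was called higher (1.3-fold, adjusted p = 0.00262). Of 12 integrins 3 were called lower, near the share among all genes, and 1 higher. Itga8 was 6.53-fold lower (5.57 and 6.8 at 24 h, against 8.7 and 9.07 at 4 h, adjusted p = 0.000542), with log2 differences of -3.32 to -2.09 when 1 array was left out. Itga5 and Itgb3 were called lower as well, but not Itga5 without probe sets that can match several transcripts (adjusted p = 0.603), nor Itgb3 in the mean of its probe sets (adjusted p = 0.0528). Itgav was the integrin called higher (log2 difference 0.35, adjusted p = 0.0132), though not after removal of the trend over gene span (0.24, adjusted p = 0.0888). The Itgav call was also lost with any 1 of the 4 arrays left out (log2 differences of 0.33 to 0.37).

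Secreted growth factors and cytokines fell more often than they rose, 15 of 34 lower and 5 higher (median log2 difference -0.88), beside 22.0% and 14.9% of all genes. Besides Sema7a and Fgf18, Fgf7, a growth factor for epithelia, had levels of 9.24 and 9.2 at 24 h, against 11.25 and 11.29 at 4 h (4.15-fold lower, adjusted p = 1.86e-05), and 10.98 and 11.04 in untreated cells. Ereg, a ligand of the EGF receptor, had levels of 9.73 and 9.72 at 24 h, against 11.64 and 11.85 at 4 h (4.06-fold lower, adjusted p = 3.02e-05), and 9.65 and 9.82 in untreated cells. Fgf7 thus ended below, and Ereg at, the untreated level. Among the 5 that rose, named after their values were seen, Wnt9a had levels of 10.25 and 10.17 at 24 h, against 8.5 and 8.6 at 4 h (3.16-fold, adjusted p = 6.03e-06), and Nrg1, neuregulin, was 3.06-fold higher (adjusted p = 0.000123).

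Chemokine and inflammatory genes had 8 of 24 members lower and 0 higher (median log2 difference -0.49), beside 22.0% of all genes lower. Ccl20, a chemokine for lymphocytes and dendritic cells, had levels of 8.54 and 8.44 at 24 h, against 10.77 and 10.46 at 4 h (4.35-fold lower, adjusted p = 0.000157), and Relb, an NF-κB subunit, was 2.95-fold lower (adjusted p = 0.00171). Of 22 interferon-stimulated genes 4 were lower and 2 higher, or 1 and 1 with 1 of the 4 arrays left out, and Gbp2, a guanylate-binding protein, had levels of 5.82 and 6.41 at 24 h, against 9.02 and 9.02 at 4 h (7.5-fold lower, adjusted p = 9.2e-05). The calls of Bst2, Oas1a and Psmb8 were lost with any 1 of the 4 arrays left out (adjusted p of 0.0625 to 0.127). Of 19 measured macrophage and blood cell markers 1 was called lower (Cd68) and 0 higher, beside 22.0% and 14.9% of all genes, and 18 did not pass. The Cd68 call was lost without 24 h replicate 1 (log2 difference -1.44). The median log2 difference of these markers was -0.83, with members from -1.88 to 0.83. Their summed linear intensity was 22835 and 24116 at 24 h, against 38836 and 38119 at 4 h and 28798 and 30422 in untreated cells. The defining markers were measured, with Csf1r at 9.85 and 10.01 at 24 h, against 10.42 and 10.4 at 4 h, and Ptprc at 7.03 and 6.72 at 24 h, against 7.15 and 7.19 at 4 h. Their part in the falls was not tested.

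Metabolic and protective genes differed by list. Of 27 antioxidant and detoxification genes 15 were lower and 3 higher (median log2 difference -0.42), beside 22.0% and 14.9% of all genes, or 11 to 14 and 1 or 2 with 1 of the 4 arrays left out. Gstm1, a glutathione transferase, had levels of 6.13 and 6.21 at 24 h, against 7.77 and 7.97 at 4 h (3.26-fold lower, adjusted p = 0.000171), and Mgst1, its microsomal relative, was 2.76-fold lower (adjusted p = 0.000182). Cyp1b1, a cytochrome P450, was 2.85-fold higher (11.88 and 11.83 at 24 h, against 10.12 and 10.57 at 4 h, adjusted p = 8.29e-05). Of 24 cholesterol genes 11 were called lower and 0 higher, but 6 to 7 under the other scalings, each with 1 higher, and 3 to 5 with 1 of the 4 arrays left out. Tm7sf2, a sterol reductase, was 2.82-fold lower (adjusted p = 0.00254) and Fdps, which makes farnesyl diphosphate, 1.94-fold lower (11.73 and 11.68 at 24 h, against 12.74 and 12.58 at 4 h, adjusted p = 0.00106). Of 24 glycolysis and hypoxia genes 11 were lower and 2 higher, but 7 were lower under each other scaling and 5 to 7 with 1 of the 4 arrays left out. Among them was Vegfa, the vascular growth factor, at 11.37 and 11.25 at 24 h, against 12.26 and 12.3 at 4 h (1.96-fold lower, adjusted p = 0.000203), and 9.72 and 9.73 in untreated cells. Of 40 ribosome biogenesis genes 14 were lower and 2 higher (9 to 12 and 0 with 1 of the 4 arrays left out), with Gar1, a small nucleolar protein, 1.9-fold lower (adjusted p = 0.000156) and Rrp9, a U3 particle protein, 1.87-fold lower (adjusted p = 0.000809). Of 31 protein-folding genes of the endoplasmic reticulum 8 were lower and 4 higher, a balance that turned round under other scalings, with 6 lower and 7 higher after quantile normalization, 5 and 9 with equal medians, and 3 and 8 with the span trend removed. Creld2 of this list was 1.78-fold lower (adjusted p = 0.000139). The largest rises in the list were those of Creb3l1 (1.61-fold, adjusted p = 0.00538) and Sel1l (1.6-fold, adjusted p = 0.000239). The Creb3l1 call was lost without 4 h replicate 1 (log2 difference 0.6).

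Adipogenic and fatty acid genes showed no common direction, with 5 of 23 lower and 4 higher, or 4 and 2 to 4 with 1 of the 4 arrays left out. Both shares were near those of all genes, 22.0% lower and 14.9% higher. Fabp4, a fatty acid binding protein, had levels of 6.47 and 6.28 at 24 h, against 8.4 and 8.4 at 4 h (4.06-fold lower, adjusted p = 0.00207), Lpl, lipoprotein lipase, had 5.57 and 5.3 at 24 h, against 7.24 and 7.15 at 4 h (3.38-fold lower, adjusted p = 2.18e-05), and Cd36, a fatty acid transporter, was 3.15-fold lower (adjusted p = 0.00528). Their untreated levels were 8.34 and 8.09 for Fabp4 and 7.32 and 7.08 for Lpl, close to 4 h. Scd2, a fatty acid desaturase, was 1.69-fold higher (adjusted p = 0.00313), and Plin2, a coat protein of lipid droplets, 1.44-fold higher (adjusted p = 0.00223). Pparg, the master regulator of fat cells, stayed under log2 5 in all 6 homozygous arrays.

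Of 29 hedgehog, Wnt and Notch genes 11 were higher and 4 lower, beside 14.9% and 22.0% of all genes, or 6 to 8 and 1 or 2 with 1 of the 4 arrays left out. Besides Lgr6 and Gas1, Gli2, a hedgehog transcription factor, was at 8.18 and 8.15 at 24 h, against 6.83 and 6.39 at 4 h (2.94-fold, adjusted p = 0.000276), and Fzd1, a Wnt receptor, was 2.13-fold higher (adjusted p = 0.000349). Gli2 in untreated cells was at 9.12 and 8.85, above both times. Of 24 growth factor receptors 7 were higher and 2 lower: Pdgfra, a PDGF receptor and fibroblast marker, was at least 2.0-fold higher (6.09 and 5.92 at 24 h, against 4.53 and 4.19 at 4 h, adjusted p = 0.00218), with 7.32 and 7.18 in untreated cells, and Ephb3, an ephrin receptor, 2.97-fold higher (adjusted p = 6.62e-05). Of 29 limb and mesenchyme transcription factors 10 were higher and 4 lower, or 5 to 7 and 2 to 4 with 1 of the 4 arrays left out. Foxs1, a forkhead factor, was 6.8-fold lower (7.49 and 7.15 at 24 h, against 10.2 and 9.97 at 4 h, adjusted p = 0.00128), Prrx2, a homeobox factor of mesenchyme, 2.8-fold lower (adjusted p = 0.00622) and Meis2, another homeobox factor, 2.0-fold higher (adjusted p = 0.000703). Of 24 Hox genes 4 were higher, near the share among all genes, and 2 lower, or 1 to 3 and 0 or 1 with 1 of the 4 arrays left out. Hoxa5 kept its call with each array left out (1.95-fold higher, adjusted p = 0.00397), whereas the calls of Hoxa3, Hoxa4 and Hoxb6 did not. Of 12 IGF and IGF-binding genes 1 was called in each direction. Igfbp6 was 2.17-fold lower (adjusted p = 0.00633), a call lost without 4 h replicate 1 (log2 difference -1.03). Igfbp7 was called higher, but not in the mean of its probe sets (log2 difference 0.01, adjusted p = 0.962). Nor was it called with the span trend removed (0.12, adjusted p = 0.12).

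**Figure D2:**
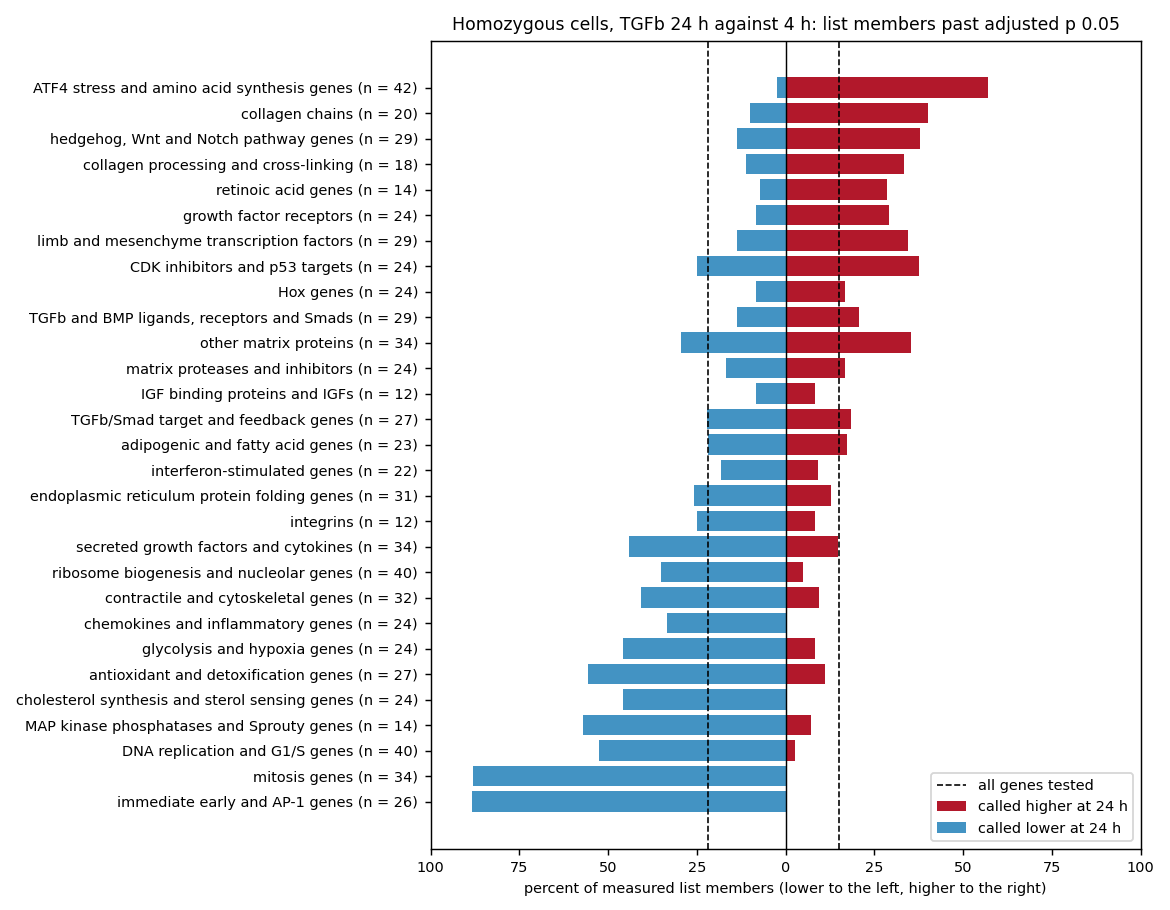
Share of measured members of each gene list (rows, with the number measured) called higher (right, red) or lower (left, blue) at 24 h than at 4 h in homozygous cells; dashed lines mark the shares among all genes tested, 14.9% higher and 22.0% lower. Immediate early and mitosis genes lie at the lower end with 23 of 26 and 30 of 34 called lower, and ATF4 and amino acid genes at the upper end with 24 of 42 called higher.

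Few markers of other cell types passed the filter on dim genes. Of 14 fibroblast markers 4 were higher and 2 lower, beside 14.9% and 22.0% of all genes. Krt19, a keratin of simple epithelia, had levels of 6.74 and 6.4 at 24 h, against 9.2 and 8.89 at 4 h (5.56-fold lower, adjusted p = 0.00138), while Epcam, a defining epithelial marker, was at 5.65 and 5.59 at 24 h and at 5.43 and 5.41 at 4 h. Of 5 measured epithelial markers of 11, 2 were called lower (Krt19 and Krt8) and 4 had a difference below 0 (median -1.79), and the summed linear intensity was 1530 and 1371 at 24 h, against 3707 and 2533 at 4 h. The Krt8 call was lost without 24 h replicate 1 (adjusted p = 0.133), 24 h replicate 2 (adjusted p = 0.135) or 4 h replicate 1 (adjusted p = 0.284). All 8 measured muscle markers had a difference below 0 (median -0.59), with a summed linear intensity of 1425 and 1640 at 24 h, against 2381 and 2813 at 4 h. Of these Des, a muscle filament protein, was called lower (adjusted p = 0.0215), but not without 24 h replicate 1 (adjusted p = 0.227) or 4 h replicate 2 (adjusted p = 0.183). Of 3 endothelial markers 1 was called lower (Flt1), and of 5 neural and 2 cartilage markers 0 passed the limma test. The part of these markers in the other results was not tested.

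Short and long genes differed in their direction. When 10067 genes were split into 5 classes by genomic span, the median log2 difference was -0.29 in the shortest class (median span 4.66 kb), -0.18, -0.05 and 0.05 in the next 3, and 0.14 in the longest (median span 122 kb). In the shortest class 5.31% of genes were called higher and 35.9% lower, and in the longest 26% higher and 11% lower. The median level of the shortest class was 9.18 and 9.22 at 24 h, against 9.6 and 9.55 at 4 h and 9.27 and 9.26 in untreated cells, so the 4 h arrays stood apart. The longest class was at 8.8 and 8.89 at 24 h, against 8.63 and 8.68 at 4 h and 8.93 and 8.96 in untreated cells. Heterozygous and wt cells showed the same order of classes, with medians of -0.23 and -0.27 in the shortest and 0.15 and 0.13 in the longest. The lists above differ in span: the median was 5.79 kb for immediate early genes, 22.4 kb for mitosis genes, 20.4 kb for ATF4 genes and 95.7 kb for collagen chains, against 24.7 kb for all genes. Its part in the lists was examined only by removing the trend from each array, after which 3506 genes were called (1663 higher, 1843 lower), including 77.7% of the original calls. In the RNA quality controls too the 4 h arrays were the lowest. The 3′ minus 5′ log2 difference was -0.40 and -0.38 at 24 h, against -0.48 and -0.44 at 4 h, for Gapdh, and 0.32 and 0.38 at 24 h, against 0.22 and 0.26 at 4 h, for beta-actin. Untreated cells had -0.34 and -0.39 for Gapdh and 0.33 and 0.30 for beta-actin, and the part of this measure in the results was not tested.

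**Figure D3:**
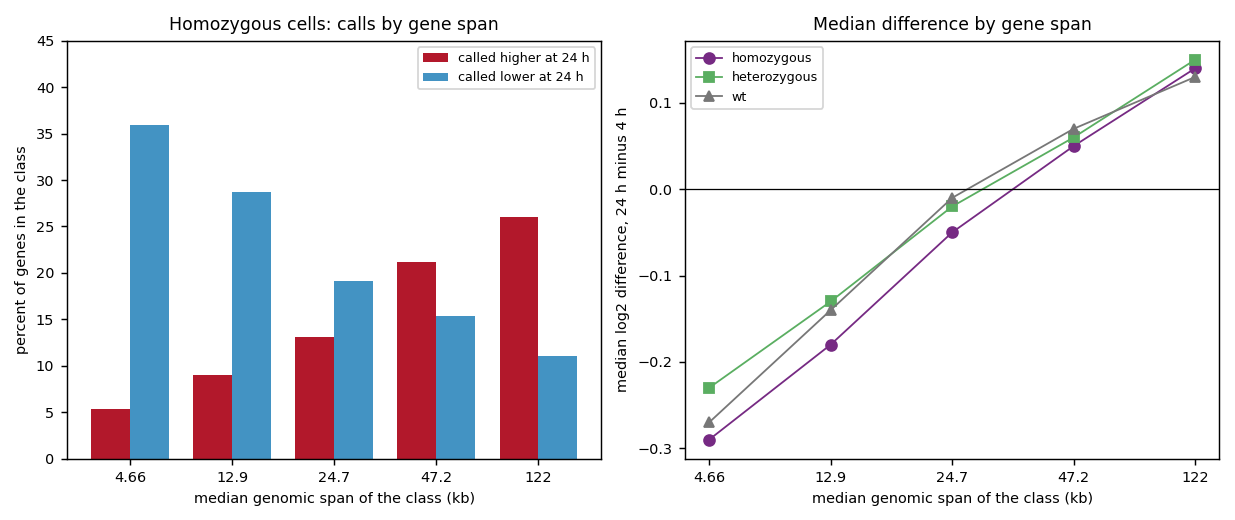
Left, percent of genes called higher (red) and lower (blue) at 24 h than at 4 h in homozygous cells, in 5 classes of genomic span given by their median in kb. Right, median log2 difference of each class in homozygous, heterozygous and wt cells: all 3 lines climb from the shortest to the longest class, from -0.29 to 0.14 in homozygous cells.

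The same step from 4 h to 24 h was then set beside the other genotypes. In heterozygous cells 3242 genes were called (32.2%, with 1502 higher, 14.9%, and 1740 lower, 17.3%), and in wt cells 3456 (34.3%, with 1517 higher, 15.1%, and 1939 lower, 19.2%). The homozygous and heterozygous comparisons share no array, nor do the homozygous and wt ones. They do share the spread of each gene, which limma pooled over all 9 groups. The overlaps of calls are therefore not independent agreement between genotypes. Fitted on the compared groups alone, limma called 5289 genes in homozygous, 3396 in heterozygous and 0 in wt cells. Genes called in the same direction in homozygous and heterozygous cells numbered 2789, which is 74.9% of the homozygous and 86% of the heterozygous calls, and 0 were called in opposite directions. With wt cells 2560 were shared, 68.8% of the homozygous and 74.1% of the wt calls, and 1 gene was called in opposite directions. Across the 10078 genes, which are not independent replicates, the log2 differences of homozygous cells correlated with those of heterozygous cells at 0.94 and with those of wt cells at 0.887 (Pearson). The slopes through 0 were 0.978 and 0.922.

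Several lists carried over with similar counts, while cholesterol and DNA replication genes had fewer calls in heterozygous and wt cells. All of these counts come from the fit with the shared spread. Immediate early genes were called lower in 23 of 26 members in homozygous, 24 in heterozygous and 21 in wt cells, and mitosis genes in 30 of 34 in homozygous, 25 in heterozygous and 24 in wt cells. ATF4 and amino acid genes were called higher in 24 of 42 members in homozygous, 22 in heterozygous and 25 in wt cells. Cholesterol genes were called lower in 11 of 24 members in homozygous, 5 in heterozygous and 4 in wt cells, and DNA replication genes in 21 of 40 in homozygous, 15 in heterozygous and 10 in wt cells; whether these counts differ was not tested. The 2 arrays of a group varied less in homozygous (standard deviation 0.192 to 0.197) and heterozygous cells (0.183 to 0.222) than in wt cells (0.321 to 0.387).

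**Figure D4:**
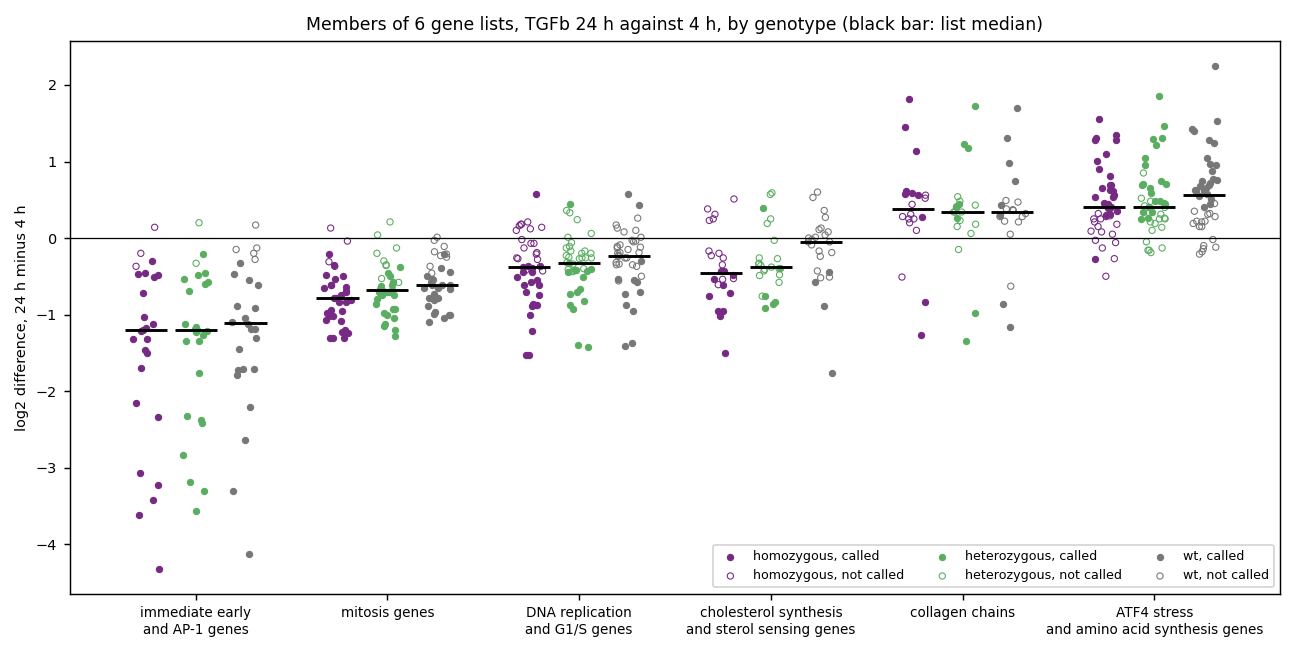
Log2 difference between 24 h and 4 h (vertical axis) for each measured member of 6 gene lists in homozygous, heterozygous and wt cells; filled points passed the test, open points did not, and black bars are list medians. Medians of homozygous cells were -1.21 for immediate early, -0.78 for mitosis and 0.40 for ATF4 genes, beside -1.21, -0.68 and 0.41 in heterozygous and -1.11, -0.61 and 0.56 in wt cells.

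No gene's change between the 2 times differed by genotype past the threshold. The limma test of the difference itself called 0 of 10078 genes (0.00%) for homozygous against wt cells, with 401 genes at an unadjusted p under 0.05, and 0 (0.00%) for homozygous against heterozygous cells, with 97. Without wt replicate 1 at 4 h the first count was 142, with 45 genes more positive and 97 more negative in homozygous cells. The genes with the smallest p are given as values. Pif1, a DNA helicase, had 4.31 and 3.89 at 24 h, against 5.8 and 5.63 at 4 h, in homozygous cells, a fall of at least 1.64-fold, and 5.53 and 5.81 at 24 h, against 5.81 and 5.8 at 4 h, in wt cells (adjusted p = 0.67 for the difference). Dclre1a, a DNA repair nuclease, differed by 1.53 in homozygous, 0.55 in heterozygous and 0.36 in wt cells (adjusted p = 0.999 against wt), with 1 of its 2 homozygous 4 h arrays under log2 5. Tifa, an adaptor of NF-κB signalling, lay near log2 5 or under it at both times in homozygous cells and under it in wt cells, so no size is given. Dusp14, a phosphatase, and Spred2, an inhibitor of Ras signalling, differed by -0.29 and -0.36 in homozygous cells and by 0.39 and 0.33 in wt cells (adjusted p = 0.999 each). Dusp14 did not pass in homozygous cells (adjusted p = 0.0548) but did with a replicate block (adjusted p = 0.0418 over all groups), and its call in wt cells, without the block, was in the opposite direction (adjusted p = 0.0168). As fitted, Spred2 was the gene called in opposite directions, and its homozygous call was lost without 24 h replicate 1 (adjusted p = 0.197) or 4 h replicate 2 (adjusted p = 0.167), with quantile normalization (0.0526) and with equal medians (0.0691). Against heterozygous cells, Rarb rose at least 5.27-fold in homozygous and at least 6.71-fold in heterozygous cells, Igdcc4, a membrane protein of the immunoglobulin family, differed by -0.66 in homozygous and -0.19 in heterozygous cells, and Nckap1l, a blood cell actin regulator, by 0.01 and -0.94 (adjusted p = 1 each).

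**Figure D5:**
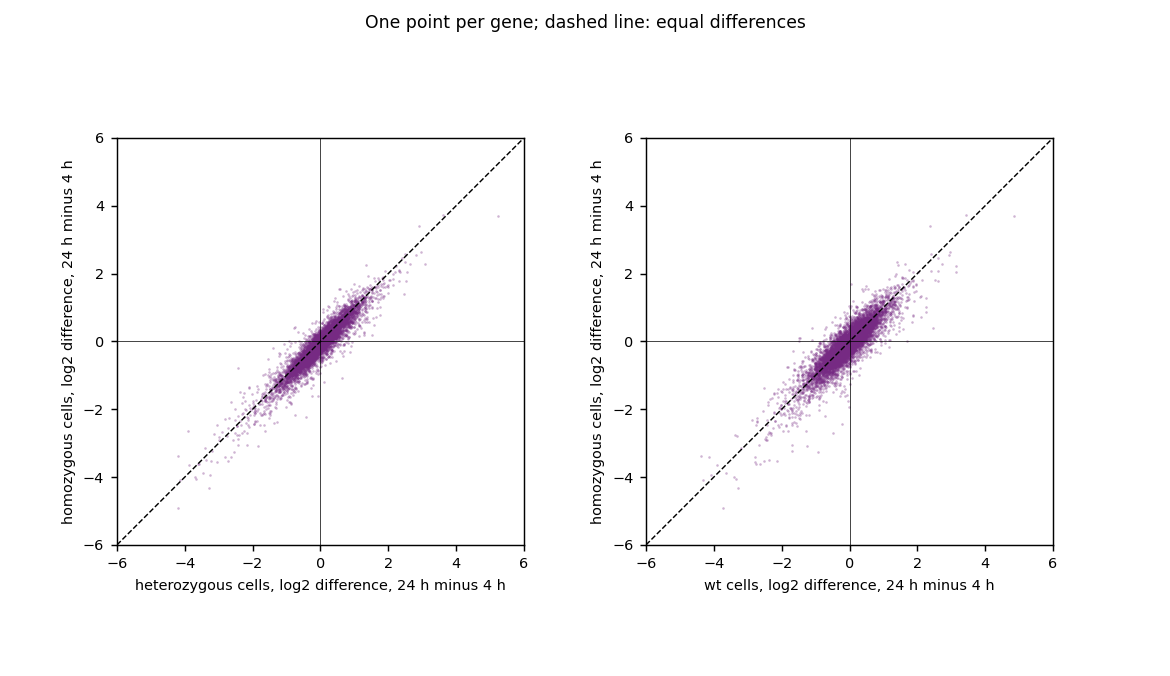
Log2 difference between 24 h and 4 h of each of 10078 genes in homozygous cells (vertical axis) against heterozygous cells (left) and wt cells (right), with the line of equal differences dashed. Points follow the line in both panels, with correlations across genes of 0.94 and 0.887.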

How the data were processed

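The authors deposited GCRMA intensity values, 1 for each probe set and array, on a linear scale; the submitters' processing notes name GCRMA, whose version is not given in the sources used here. Values were taken as log2 without further normalization. Of 45101 probe sets, those with log2 of at least 5 in at least 2 of 18 arrays and a single gene symbol were kept (17442), and the brightest stood for each of 10078 genes. The means of 9 groups were fitted together to 18 arrays in R 4.3.3 with limma 3.58.1 (eBayes with an intensity trend, two-sided), with Benjamini-Hochberg adjustment over all genes, and called at adjusted p under 0.05. The fit was tested on simulated data. No scan date is given, so no batch was modelled, and the number of arrays limits the precision. Of 10 key genes 9 were measured.

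Genes are named as follows: the 15 largest rises and falls whose arrays do not overlap, the 4 largest changes (or fewer) among the called genes of each list, the key genes, and the 5 smallest p of each difference between genotypes. Some other list members, among them Cdkn2b, Rarg, Plin2, Flna and Mcm2, fall outside this rule and were named after their values were seen. The gene lists, the members and the alternatives were chosen with earlier results of these data known, and the removal of a trend over gene span was chosen after seeing the data. Promoter windows and gene positions are from RefSeq, GRCm38.p6, matched by symbol.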

Additional observations from a re-analysis of the deposited data

How the results depend on the processing

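Direction and side of the threshold were kept by 110 of the 152 named genes under every setting in which they were tested. Not every setting tested all of them: the filter on a mean log2 of at least 6 held 129 of the 152. The count of 3722 genes in homozygous cells was 5723 with array weights and 5676 with the homozygous arrays alone, and 2054 to 2422 with 1 of the 4 arrays left out, where fewer arrays are in the fit and the lone array is assumed to vary like the other groups. For heterozygous cells it was 1863 to 2145 with 1 array left out. For wt cells it was 1544 with array weights, 1958 to 4172 with 1 array left out, and 0 by limma on the compared groups alone, where 2799 genes were at an unadjusted p under 0.05. The 0 genes of both differences between genotypes became 3 each without a filter, and 0 to 142 against wt with 1 array left out. The cause of these moves was not tested. Opposite signs, none of them called, were given by Tgfbr1 with the mean of its probe sets (0.46), Tgfb1 with quantile normalization (0.02), equal medians (0.04) and the span trend removed (0.05), Acta2 with equal medians (0.09), the span trend removed (0.12) and with 1 array left out (-0.06 to 0.06, above 0 without 4 h or 24 h replicate 2, at 0.04 and 0.06), and Nckap1l with the span trend removed (-0.04). No label pairs the arrays and each group has only 2 numbers, but deviations of same-numbered homozygous arrays correlated at 0.544 to 0.61, a hint from the data only. In the same deviations 6 of 6 arrays correlated best with their own number. That count adds nothing to the correlations, because the deviations of the 2 arrays of a group are equal and opposite. The replicate block moved Dusp14 past the threshold (adjusted p = 0.0418) and gave 3692 genes over all groups and 3778 within genotype. Levels under log2 5 limit the sizes of dim genes.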
